A study of Mus musculus with 8 samples.

Results

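The 10 genes listed here encode parts of the elastic fibre and of the matrix around it: elastin (Eln), fibrillin 1 (Fbn1), the fibulins Fbln2 and Fbln5, the crosslinking enzymes Lox and Loxl1, the latent TGF-beta binding protein family member Ltbp2, tenascin C (Tnc), periostin (Postn), and the receptor Pdgfra of the mesenchymal cells that give rise to alveolar myofibroblasts. Members were all probe sets annotated to exactly 1 of these symbols. They were 18 probe sets for 9 genes, of 18193 genes with a symbol, on the array used at embryonic day E18.5, and 13 probe sets for 8 genes, of 8251, on the older array used at E11.5. No probe set was matched to Fbn1 on either array, and it is not analysed here. Fbln5 had no matched probe set on the E11.5 array.

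The series held 8 Affymetrix 1-colour arrays of embryonic tissue from FVB/N mice. At E18.5, 3 lungs of MIA bitransgenic embryos, labelled as double transgenic SP-C/MIA overexpressors, were set against 3 lungs of single transgenic littermates. At E11.5, 1 lung sample was set against 1 trachea sample. All E18.5 embryos carried at least 1 transgene, the labels do not say which one the controls had, and no source used here says whether an E18.5 array held 1 embryo or a pool. SP-C is surfactant protein C, whose promoter is used to drive transgenes in distal lung epithelium, and MIA is a small secreted protein first found in melanoma.

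Elastic fibres form outside the cell. Fibroblasts and myofibroblasts secrete tropoelastin, which is laid onto a scaffold of fibrillin microfibrils with the help of fibulins, and lysyl oxidases join its lysines into an insoluble, stretchable polymer. When alveoli form in the mouse lung, this polymer is laid down at the tips of the growing septa by cells that descend from Pdgfra-positive mesenchyme. Tenascin C and periostin are matricellular proteins, which modulate how cells attach to and signal from the matrix and which are made in large amounts in growing and remodelling tissue.

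The array signal is a linear brightness per probe set, and every array had a 2% trimmed mean of about 1500. Median signals were 421 to 464 on the bitransgenic arrays, against 415 to 460 on the control arrays. Across genes, control 3 was on average the least like the other arrays, with a mean correlation of 0.956. The 3' to 5' signal ratio of Actb, a sign of RNA quality, was 1.51 to 1.65 in bitransgenic lungs, against 1.28 to 1.5 in controls, and was lowest in control 3. The Gapdh ratio was 0.9209 to 1.079 in bitransgenic lungs, against 0.781 to 0.921 in controls, and its ranges overlapped by a small margin. The Actb ratio moved with the group, though its ranges parted only by a small margin. Adjusting for it therefore also takes out part of any group difference, and the ratio and the genotype cannot be told apart. Fits adjusted for the Actb ratio as a covariate are given beside the results it touches. The Mia signal was 31399, 42666 and 41546 in the bitransgenic lungs, against 1071, 1070.5 and 734 in the controls.

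Of the 9 genes measured in the E18.5 lungs, none changed between bitransgenic and control lungs at the threshold used, an adjusted p under 0.05 in limma over all 12625 genes tested, where 85 genes (0.673%) passed. At an unadjusted p under 0.05 there were 3 members, Loxl1, Postn and Tnc, where 9.69% of all genes reached that level. By the brightest probe set of each, the log2 changes of the 9 genes, bitransgenic minus control, ran from -0.41 to 0.36. Each of these fitted changes was under 1.5-fold. Further probe sets of Eln and Pdgfra had larger changes, of -0.86 and -0.71, given below. The median of the 9 genes was -0.26, against 0.01 over all genes tested, and 8 of the 9 were negative, where 47.4% of all genes were. Adjusted for the Actb ratio the signs of Fbln2, Fbln5 and Ltbp2 turned positive, so the count of negative members depended on that choice. The bitransgenic arrays lay all below the controls for Tnc and Postn (7.56% of all genes did so) and all above them for Loxl1 (8.86% of all genes). An exact permutation test of 3 arrays against 3 cannot give a p under 0.1. It gives that smallest value to any gene whose groups do not overlap, as for these 3 genes and for 16.4% of all genes. It therefore adds nothing to the ranges. In whole-lung RNA, fewer cells of a type and less RNA per cell cannot be told apart.

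**Figure D1:**
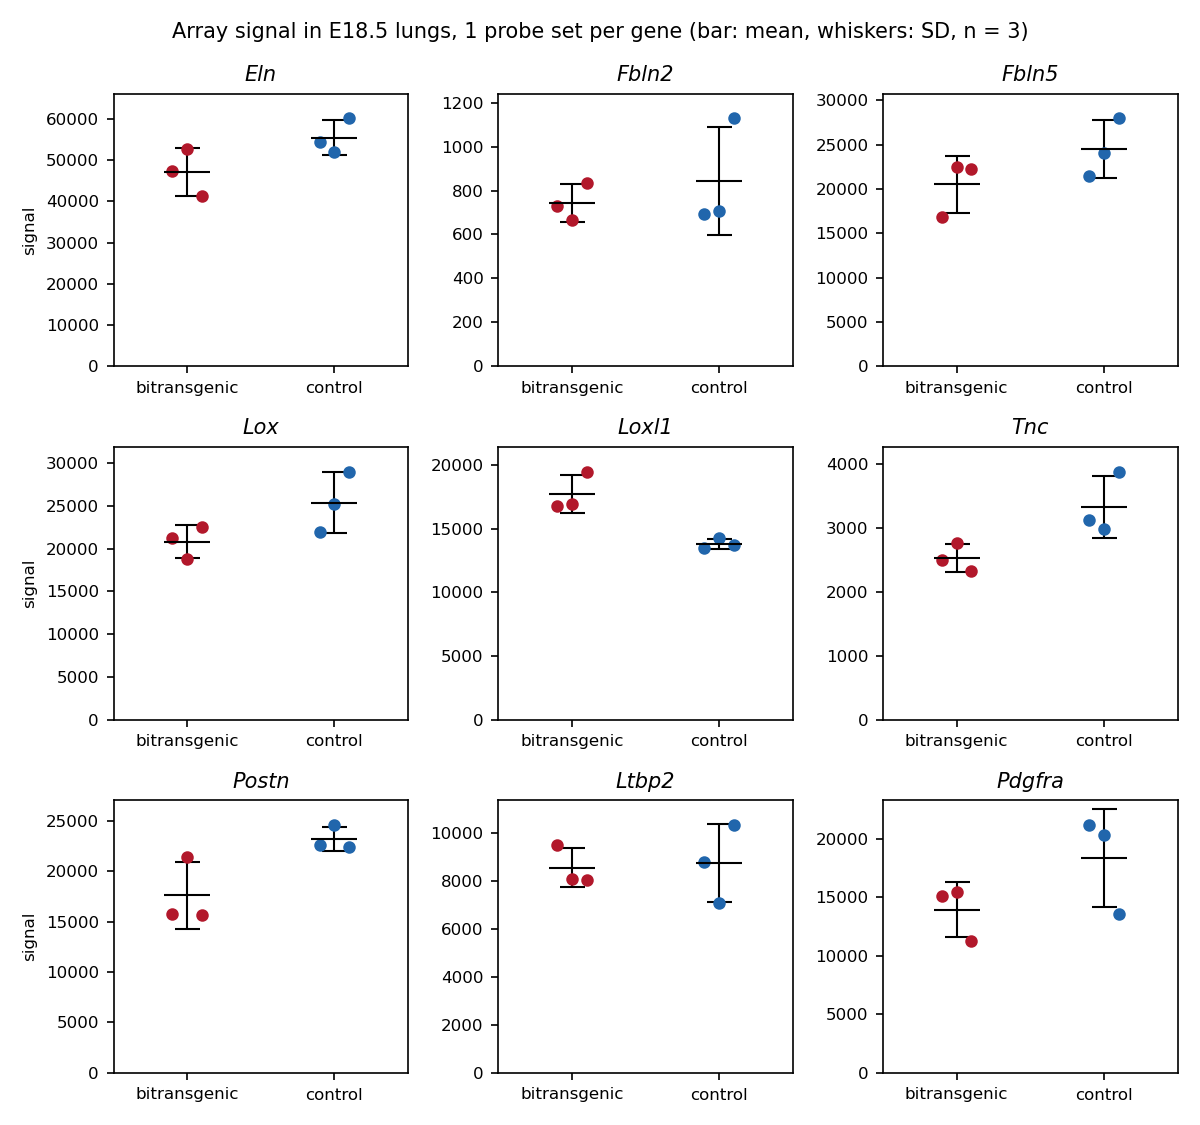
Array signal (linear axes from 0) of the 9 genes in the 3 bitransgenic and 3 control lungs at E18.5, with 1 probe set per gene. Points are arrays, in the order of replicates 1 to 3 from left to right, horizontal bars are means and whiskers are SD. The groups are apart for Loxl1, Tnc and Postn and overlap for the other 6 genes, and control 3 holds the highest control point for Eln, Fbln2, Fbln5, Lox, Tnc and Ltbp2 and the lowest for Postn and Pdgfra.

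Elastin itself is the core of the fibre. The gene spans bases 134702595 to 134747368 of chromosome 5 (GRCm38.p6 assembly). Its brighter probe set read 47289, 52711 and 41209.9 in the bitransgenic lungs, against 54252, 51908 and 60117 in the controls. The groups overlapped, because bitransgenic 2 lay above control 2. The means were 47070.0 ± 5754 and 55426 ± 4228 (SD, n = 3 each), with a log2 change of -0.24 (SE 0.12, limma adjusted p = 0.586), and of -0.06 when adjusted for the Actb ratio. The second Eln probe set read 5461, 6285 and 5230.2 in the bitransgenic lungs, against 7248, 9272 and 16439 in the controls. Here the bitransgenic values were close together and all below the controls, and control 3 stood far above the other 2 controls. Its log2 change was -0.86 (95% interval -1.44 to -0.29, limma adjusted p = 0.292 over all probe sets). Without control 3 it was -0.53. Adjusted for the Actb ratio it was -0.17 (limma adjusted p = 0.905). The probe sets thus gave the same sign, with sizes that differed from each other and shrank in the adjusted fit.

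Neither crosslinking enzyme passed the test. Lox, the copper enzyme that starts the joining of elastin and collagen chains, had a brighter probe set at 21260.1, 18757 and 22479 in the bitransgenic lungs, against 21897, 25166 and 29007 in the controls. These groups overlapped, with a log2 change of -0.28 (SE 0.13, limma adjusted p = 0.576), and of -0.15 when adjusted for the Actb ratio. A second Lox probe set read 7145, 6931 and 6269.8 in the bitransgenic lungs, against 7394, 9214 and 11987 in the controls. All bitransgenic values were lower there, the nearest of them by a small margin, and the log2 change was -0.46 (SE 0.17, limma adjusted p = 0.438 over all probe sets). It was -0.11 when adjusted for the Actb ratio (limma adjusted p = 0.936) and -0.28 without control 3.

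Loxl1, a lysyl oxidase that in mice is needed to keep renewing elastic fibres in the adult, was the 1 member with a positive change. Its signal was 16792, 16943.5 and 19467 in the bitransgenic lungs, against 13446, 14237 and 13736 in the controls. The groups were apart and the controls lay close together. The means were 17734 ± 1503 and 13806 ± 400.2 (SD, n = 3 each), with a log2 change of 0.36 (95% interval 0.10 to 0.61, limma adjusted p = 0.314). Adjusted for the Actb ratio the change was 0.34 (limma adjusted p = 0.778). The second Loxl1 probe set read 76.3 to 169 in bitransgenic lungs, against 23.9 to 37.4 in controls. It did not pass the filter on low signals, and no fold is given.

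The proteins that organise the fibre had overlapping groups. Fbln5, a fibulin that binds elastin and is needed for fibre assembly in mice, read 16844, 22516 and 22265 in the bitransgenic lungs, against 21408, 24090.4 and 27975 in the controls. Its log2 change was -0.26 (95% interval -0.60 to 0.08, limma adjusted p = 0.671), and a second, dim Fbln5 probe set had 0.17. Fbln2, a fibulin of vessel walls and of embryonic valves and cartilage, averaged 744 ± 85.6 in bitransgenic lungs and 843 ± 247 in controls (SD, n = 3 each). The control spread came from control 3, at 1129, and the log2 change of -0.14 became 0.07 without that array. Ltbp2, which binds fibrillin microfibrils and, unlike its relatives, does not bind latent TGF-beta, averaged 8546 ± 825 in bitransgenic lungs and 8722 ± 1624 in controls (SD, n = 3 each). Its log2 change was -0.02, with a 95% interval of -0.37 to 0.34, and turned positive without control 3.

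Both matricellular genes had all bitransgenic signals below all control signals. Tnc, a large multi-armed glycoprotein of embryonic mesenchyme, read 2500.1, 2774 and 2336 in the bitransgenic lungs, against 3129, 2987 and 3887 in the controls. The log2 change was -0.38 (95% interval -0.71 to -0.04, limma adjusted p = 0.446), and -0.12 when adjusted for the Actb ratio. A dimmer Tnc probe set spread from 322 to 931 in bitransgenic lungs, against 472 to 1398 in controls, and its groups overlapped. Its log2 change of -0.42 was 0.65 when adjusted for the Actb ratio (limma adjusted p = 0.855) and -0.01 without control 3. Postn, a matrix protein that binds collagen and integrins, read 15733, 21428.5 and 15633 in the bitransgenic lungs, against 22567, 24576 and 22382 in the controls. Bitransgenic 2 lay close to the controls and the other 2 bitransgenic arrays well below them. The means were 17598 ± 3318 and 23175 ± 1217 (SD, n = 3 each), with a log2 change of -0.41 (95% interval -0.73 to -0.09, limma adjusted p = 0.373). Adjusted for the Actb ratio the Postn change was -0.30 (limma adjusted p = 0.835).

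Pdgfra, the receptor through which epithelial Pdgfa drives the spread of alveolar myofibroblast precursors in mice, had 3 probe sets, all with negative log2 changes. The brightest read 15148, 15487 and 11229 in the bitransgenic lungs, against 21177, 20289.7 and 13585 in the controls. In each group replicate 3 was the lowest, and the control 3 value lay among those of the bitransgenic lungs. The log2 change was -0.38 (SE 0.19, limma adjusted p = 0.6). Adjusted for the Actb ratio it was -0.69 (limma adjusted p = 0.7). Leaving out control 3 gave -0.58 (limma adjusted p = 0.143). Leaving out both replicate 3 arrays, a choice made after the data were seen, gave -0.43, which passed (limma adjusted p = 0.039). A dim second probe set read 571, 331 and 491 in the bitransgenic lungs, against 793, 816 and 784 in the controls. There the groups were apart, with a log2 change of -0.71 (95% interval -1.16 to -0.26, limma adjusted p = 0.263 over all probe sets). The third probe set had -0.23 and overlapping groups, with -0.92 when adjusted for the Actb ratio (limma adjusted p = 0.774) and -0.61 without control 3.

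**Figure D2:**
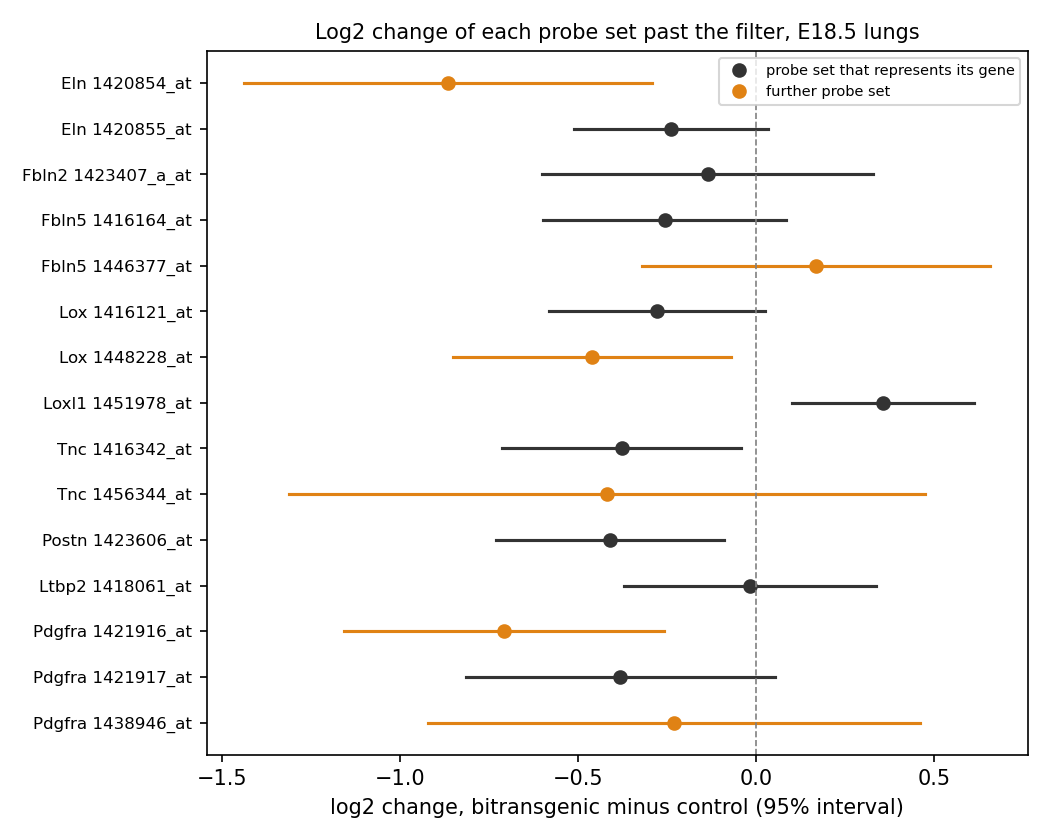
Log2 change (bitransgenic minus control) of the 15 member probe sets past the filter on low signals at E18.5, with 95% intervals from limma fitted on all probe sets. Dark points are the probe sets that represent their genes and orange points are further probe sets of the same genes. In 13 of the 15 the change is negative, Loxl1 lies above 0, and the probe sets of Eln and of Pdgfra differ in size.

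Counted by probe set, 15 of the 18 passed the filter, and the 3 that did not were further probe sets of Fbln2, Lox and Loxl1. The groups did not overlap for 5 of them with the bitransgenic arrays lower, where 7.81% of all probe sets did so, and for 1 with the bitransgenic arrays higher, where 8.57% did. None passed an adjusted p under 0.05 in limma over all probe sets, where 0.487% passed. Probe sets of 1 gene share its RNA and are not independent of one another.

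Across the 6 E18.5 arrays, Eln and Tnc had the most similar log2 signals of the member pairs, with a Pearson r of 0.94. After each group's mean was taken out their r was 0.878, and that of Fbln2 and Lox was 0.883. The strongest r was then negative, at -0.955 for Fbln2 and Pdgfra, and Lox and Pdgfra had -0.865. Loxl1 ran against Eln, with r of -0.86, and of -0.777 after the group means were taken out. These correlations are descriptions over 6 arrays, and those with the group means left in share the group difference. Control 3, the highest control for Fbln2 and Lox and the lowest for Pdgfra, enters all of them. The genes most like Eln over the same arrays were Ppp1r13b, Oasl2 and 1110038B12Rik, with r from 0.989 to 0.994.

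Among 12 measured partners of the elastic fibre outside the members, 1 rose, none fell and 11 did not pass. The rise was that of Fbn2, the fibrillin of embryonic microfibrils. Fbn2 read 8605, 8144 and 8233 in the bitransgenic lungs, against 4999, 4854 and 4077 in the controls, and its groups were far apart. The log2 change was 0.84 (SE 0.13, limma adjusted p = 0.0227). It was not called when control 2 was left out (limma adjusted p = 0.107), without bitransgenic 1, 2 or 3 (limma adjusted p = 0.151, 0.11 and 0.0919), or after adjustment for the Actb ratio, where the change was 0.65 (limma adjusted p = 0.357). Median centring gave 0.82 (limma adjusted p = 0.0614), and a fit without the intensity trend also left it just outside (limma adjusted p = 0.0526). Ltbp3, a binding protein of latent TGF-beta, had a log2 change of 0.35, Ltbp4 of -0.39 and Efemp1 of 0.22, and none of them passed. The median of the partners was 0.06, against 0.01 over all genes.

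No gene passed in the other lists of the pathway. Of 16 further matricellular genes, 7 had negative changes, and the median was 0.08. The growth factor targets Ccn2, Ccn4 and Ccn1 had log2 changes of -0.56, -0.59 and -0.41, while the thrombospondin gene Thbs2 had 0.44. Of 15 genes of PDGF and TGF-beta signalling, 7 were negative, and the median was 0.05. The ligand genes Pdgfc, Pdgfb, Tgfb3 and Pdgfd had log2 changes of 0.62, -0.49, 0.41 and -0.35. Of 10 matrix proteases and inhibitors, 7 were negative, with Timp3, an inhibitor bound to the matrix, at -0.61, and Bmp1, which also activates lysyl oxidase, at 0.62.

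Markers of the cells that make elastic fibres stayed within overlapping ranges. None of 10 smooth muscle and myofibroblast genes passed, and their summed signal was 49296 to 57354 in bitransgenic lungs, against 46606 to 59995 in controls. Acta2, the smooth muscle actin, had a log2 change of 0.09. None of 10 fibroblast genes passed, with sums of 229183 to 274298 in bitransgenic lungs, against 235709 to 295773 in controls. The summed signals overlapped too for lung epithelium, proximal airway epithelium and neural crest and pharyngeal mesenchyme. The lung epithelium sum was carried by Sftpc, at 72239 to 93285 in bitransgenic lungs, against 81074 to 88408 in controls. In that list Epcam and Foxa2 had groups apart and higher, with log2 changes of 0.63 and 0.29. Of its 6 genes 1 was negative, and none passed. The summed signals did not overlap for cartilage, at 1927 to 2219 in bitransgenic lungs, against 2227 to 2406 in controls, or for 4 further cell types. The cartilage sum covered 4 of 7 listed genes, none of which passed, and its ranges parted by a small margin. All 8 endothelial markers had negative changes and none passed, with sums of 50732 to 58327 in bitransgenic lungs, against 68787 to 95001 in controls. In the mesothelial list 1 of 6 fell, with sums of 22728 to 27519 in bitransgenic lungs, against 34425 to 52812 in controls. Only 2 of these 6 had groups apart, Msln and Krt19, with log2 changes of -1.61 and -0.48, so the sum does not speak for the whole list. In the alveolar type II list 5 of 10 fell, with sums of 145754 to 189049 in bitransgenic lungs, against 342249 to 373850.5 in controls. There 8 of the 10 had groups apart and lower. Sftpc, the brightest of the list, and Etv5 had overlapping groups, with log2 changes of 0.002 and 0.08. In the alveolar type I list 3 of 7 fell, with sums of 174166 to 193967 in bitransgenic lungs, against 228307 to 247822 in controls. The 3 were Aqp5, Clic5 and Rtkn2, with log2 changes of -3.65, -1.43 and -1.47. The sum was carried by brighter genes that did not pass, such as Ager, at -0.32, so it does not speak for those 3. No defining marker of these last 4 lists was at 0. The part of these cell types in the values of the members was not tested.

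At E11.5 the question was which genes differ between lung and trachea before cartilage and alveoli form. With 1 array per tissue there is no replicate check, no test and no error for these values. Of 7 members compared there, 4 were over 2-fold higher in trachea and none was over 2-fold higher in lung. Over all 5699 genes compared, 2.02% were over 2-fold higher in trachea and 1.05% in lung. The count rule also asked that the higher signal lie above the median of the table, 543. Ratios are on the scale of signal plus a pseudocount of 84.3, and understate differences of dim genes. The median log2 ratio of lung over trachea was -1.39 for the members, against 0.00 over all genes.

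The 4 were both matricellular genes, elastin and fibulin 2. Tnc read 253 in lung and 2724 in trachea, a log2 ratio of lung over trachea of -3.06. It ranked 2 from the trachea side among the genes compared. The second Tnc probe set, below the filter, read 61.7 in lung and 604 in trachea. Postn read 874 in lung and 3346 in trachea, with a log2 ratio of -1.84. Eln read 1140 in lung and 3950 in trachea, with a log2 ratio of -1.72, and its dim second probe set read 11.8 in lung and 243 in trachea. Fbln2 read 1053 in lung and 2894 in trachea, with a log2 ratio of -1.39. All 4 stayed over 2-fold higher in trachea in each of the other settings tried.

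The other 3 members compared were under 2-fold apart between lung and trachea by their brightest probe sets. Pdgfra had a bright signal in both, 9108 in lung and 11138 in trachea, with a log2 ratio of -0.29, and its second probe set past the filter had -0.66. Lox read 2018 in lung and 1646 in trachea, with a log2 ratio of 0.28, and a dim second Lox probe set, below the filter, read 380.1 in lung and 76.2 in trachea. The mean of both Lox probe sets gave a log2 ratio of 0.91. Loxl1 read 386 in lung and 308 in trachea, below the table median in both, so that the rule could not have counted it. Ltbp2, at 120.3 in lung and 62.0 in trachea, did not pass the filter.

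**Figure D3:**
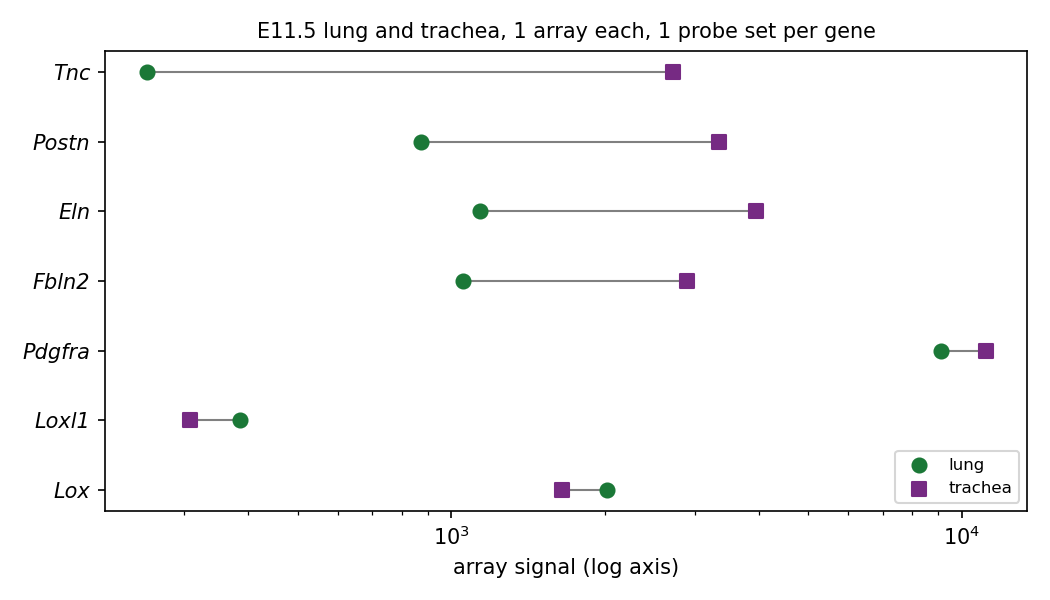
Array signal (log axis) of the 7 members compared at E11.5, with lung as circles and trachea as squares, 1 array each and no error bars because there are no replicates. The gap is widest for Tnc (253 in lung, 2724 in trachea), spans over 2-fold for Postn, Eln and Fbln2, and is narrow for Pdgfra, Loxl1 and Lox.

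Other mesenchymal genes were also higher in the trachea sample. Of 6 smooth muscle genes, 3 were over 2-fold higher in trachea, Tagln, Acta2 and Myh11, with log2 ratios of lung over trachea of -1.55, -1.26 and -1.20. The summed signal of that list was 8441 in lung and 17745 in trachea. Of 8 fibroblast genes all were higher in trachea, with a median of -0.56, and Dcn, at -1.59, was over 2-fold apart. Markers of neural crest and pharyngeal mesenchyme summed to 1956 in lung and 11060 in trachea, with 3 of 5 over 2-fold higher in trachea. Of 4 lung epithelial markers, 3 were higher in lung, with a list median of 0.19, and Sftpc, the gene of surfactant protein C, read 1503 in lung and 257 in trachea (log2 ratio 2.22). Their sum of 13389 in lung and 14362 in trachea was carried by Id2, at 7052 in lung and 9744 in trachea. No measured marker in these lists was at 0, and their part in the ratios of the members was not tested. Among 7 fibre partners, Mfap4 and Ltbp4 were over 2-fold higher in trachea, with log2 ratios of -1.46 and -1.19, and Fbn2 had -0.37. Thbs2 and Smoc1, with log2 ratios of -1.66 and -1.01, were the 2 of 9 further matricellular genes over 2-fold higher in trachea. None of 9 genes of PDGF and TGF-beta signalling was over 2-fold apart, and their median was 0.10.

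The upstream sequences of 3 of the 4 genes higher in the E11.5 trachea are shown because their ratios lay on the same side. They come from RefSeq on GRCm38.p6, 250 bases before to 50 after a transcript start, on the strand of the gene, and 6 of the 9 measured members had such a window. Capitals mark matches to TATAAA or GGGCGG on either strand. Tnc is at chr4:64046887-64047186 on the minus strand, Postn at chr3:54360857-54361156 and Fbln2 at chr6:91212514-91212813, both on the plus strand. Tnc and Postn each have a second window, not shown.
Tnc: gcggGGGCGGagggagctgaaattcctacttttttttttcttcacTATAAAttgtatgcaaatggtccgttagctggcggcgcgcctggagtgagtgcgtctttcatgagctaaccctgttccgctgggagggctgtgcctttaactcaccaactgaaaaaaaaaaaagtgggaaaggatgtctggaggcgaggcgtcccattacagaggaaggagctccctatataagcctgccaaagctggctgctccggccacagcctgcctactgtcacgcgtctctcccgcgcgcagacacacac
Postn: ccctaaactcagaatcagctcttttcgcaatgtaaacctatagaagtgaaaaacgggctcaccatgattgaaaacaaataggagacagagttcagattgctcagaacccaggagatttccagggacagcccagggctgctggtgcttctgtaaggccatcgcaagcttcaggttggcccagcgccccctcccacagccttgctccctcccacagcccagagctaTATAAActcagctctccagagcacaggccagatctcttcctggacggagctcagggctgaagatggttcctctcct
Fbln2: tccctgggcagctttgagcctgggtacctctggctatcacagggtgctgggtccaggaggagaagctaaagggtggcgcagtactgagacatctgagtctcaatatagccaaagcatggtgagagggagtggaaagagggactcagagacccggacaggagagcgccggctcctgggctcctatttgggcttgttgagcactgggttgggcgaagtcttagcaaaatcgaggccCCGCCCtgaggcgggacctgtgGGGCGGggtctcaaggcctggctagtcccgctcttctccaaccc
The TATAAA match lies 26 bases before this start in Postn and 205 before this start in Tnc, and Fbln2 has none. The second Postn window has no match to TATAAA, and the second Tnc window has it 126 bases before its start. Only exact letters were searched, so near forms, such as tatataa closer to this Tnc start, are not marked. GGGCGG is matched in Tnc and on both strands in Fbln2. Of 32851 windows of this length, 13.6% hold TATAAA and 35.7% hold GGGCGG. The motifs TGANTCA and GGAATG, held by 7.81% and 14.7%, were searched too and had no match in these 3 windows. Matches of letters are a description of the windows and no evidence of binding.

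The E11.5 and E18.5 arrays carried different probe sets for each gene, so signals were not compared between the ages.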

How the data were processed

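RNA from 8 tissue samples was labelled with biotin and hybridised to Affymetrix arrays. The submitters' processing notes name MAS5 as the source of the deposited values, and its version and settings are not given in the sources used here. The deposited unit is intensity, a linear signal per probe set, and the authors took no logarithm.

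The 64 control probe sets at E18.5 and the 66 at E11.5 were dropped. Of the others, 34945 of 45037 and 10833 of 12422 had 1 gene symbol in the platform annotation, 932 and 396 had several, and 9160 and 1193 had none. Here log2 values were taken after adding a pseudocount at the 20th percentile of each table (86.4 and 84.3). Each gene was represented by its brightest probe set, by mean log2 value, and kept when that mean reached the 40th percentile of all probe sets. The E18.5 comparison used limma 3.58.1 (lmFit, eBayes with an intensity trend; R 4.3.3), two-sided, with Benjamini-Hochberg adjustment over all genes tested. The fit was tested on simulated data. It recovered 16.4% of changes of 1.5-fold, 55.5% of 2-fold and 92.7% of 4-fold, with 4.12% false calls on average. Most changes as small as those fitted for the brightest probe sets of the members would thus be missed. A member not called is not shown to be unchanged. No test was made at E11.5. The number of arrays limits the precision. Nothing in the labels says that replicates came from separate litters, so p-values measure the spread between these samples.

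The members and gene lists were chosen with earlier results of these data known. All members are named, and of each other pathway list at most 4 genes, those of smallest p at E18.5 and of largest ratio at E11.5. Acta2, Sftpc and Etv5 at E18.5 and Fbn2 at E11.5 are outside that rule and were named after their values were seen. Alternatives covered scaling, pseudocount, filter, probe sets, variance model, array weights, covariates and left-out arrays. The covariates were the Actb ratio, and sex taken from a split of the arrays at the midpoint of the range of Xist signals. Such a split always assigns both sexes, so the sex of the embryos was not checked. Figures were drawn with matplotlib 3.10.9.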

Additional observations from a re-analysis of the deposited data

How the results depend on the processing

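No member passed at E18.5 under 17 of the 19 other settings, among them each single array left out (0 members each time). With array weights, whose estimation stopped before it converged, 4 passed (Lox, Loxl1, Postn and Pdgfra, limma adjusted p from 0.0173 to 0.035). Without control 3 and bitransgenic 3 together, chosen after seeing the data, 1 passed (Pdgfra). The number of all genes passing, 85, was 1339 with array weights, 187 without those 2 arrays, 20 when adjusted for the Actb ratio, and 22 to 97 with 1 array left out. The lowest of these came from leaving out control 2 (22), bitransgenic 3 (35), bitransgenic 1 (40) and bitransgenic 2 (56). Signs turned for 3 members. Adjusted for the Actb ratio, Fbln2, Fbln5 and Ltbp2 had 0.18, 0.033 and 0.14. With 1 array left out Fbln2 ran from -0.25 to 0.073, positive without control 3, and Ltbp2 from -0.16 to 0.11, positive without control 3, bitransgenic 2 or bitransgenic 3. Ltbp2 also had 0.23 with array weights and 0.15 without both replicate 3 arrays. Why these values moved was not tested. The other 6 members kept their sign in the 18 settings that gave them a single value. At E11.5 the count of 4 members was the same under 9 other settings. No paired analysis was possible because the labels match no array of 1 group to an array of the other. The replicate numbers used here follow the order of the deposited samples within each group and mark no pairs. Signals near the pseudocount, such as those of Ltbp2 at E11.5, carry little information on a ratio.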
